A study of Mus musculus with 2 samples.

Results

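Dense runs are stretches of mouse liver chromatin where peaks of the corepressor SMRT follow one another closely. A run was formed by joining peaks of 1 list whose neighbouring starts lay up to 5000 bp apart, and it was called dense when it held 5 or more peaks. Members were thus chosen by the deposited peak positions alone, so run number, run length and spacing are described without a test, while peak scores and overlap with the other list played no part in the choice. Of 45448 peaks in both lists, 1143 belonged to dense runs: 442 of 21370 in the list labelled ZT10 (2.07%, 95% Clopper-Pearson interval 1.88 to 2.27) and 701 of 24078 in the list labelled ZT22 (2.91%, 2.70 to 3.13). Here and below such intervals cover counting error only, and peaks of 1 run share a locus.

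The lists come from SMRT chromatin immunoprecipitation and sequencing of whole livers of untreated C57BL/6 males, aged 12 weeks and fed freely. One group was killed at Zeitgeber time (ZT) 10, in the late light phase, and the other at ZT22, in the late dark phase. Material of 4 mice was pooled per time into 1 library, which leaves no replicates and allows no test between times. Read depth is unknown. Inside each list, however, the peaks are named after the other clock time, so every direction between ZT10 and ZT22 rests on the sample labels and would swap if the peak names were right.

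SMRT does not bind DNA itself. It is recruited by nuclear receptors, among them the thyroid hormone and retinoic acid receptors, and activates the histone deacetylase HDAC3. In liver, corepressor complexes with HDAC3 are known for their part in the daily control of lipid metabolism through the clock receptor REV-ERB alpha. A factor recruited at several elements of 1 gene region can appear as a row of separate peaks, and a single broad domain can appear likewise when a caller reports it in fixed-width pieces.

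Most dense runs were of the smallest size allowed. The ZT10 list held 80 dense runs, of which 53 had 5 peaks, 17 had 6, 7 had 7, 2 had 8 and 1 had 10. In the ZT22 list there were 128, with 84 of 5 peaks, 33 of 6, 7 of 7, 2 of 8 and 2 of 9. Just outside the rule stood 183 ZT10 and 249 ZT22 runs of 4 peaks. The ZT22 surplus therefore lay at 5 and 6 peaks, while runs of 7 or more numbered 10 at ZT10 and 11 at ZT22. It was smaller without weak peaks: those with a score of 1.5 or more formed 39 ZT10 and 49 ZT22 dense runs, and with both lists limited to their 21370 strongest peaks the numbers were 80 and 101.

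**Figure D1:**
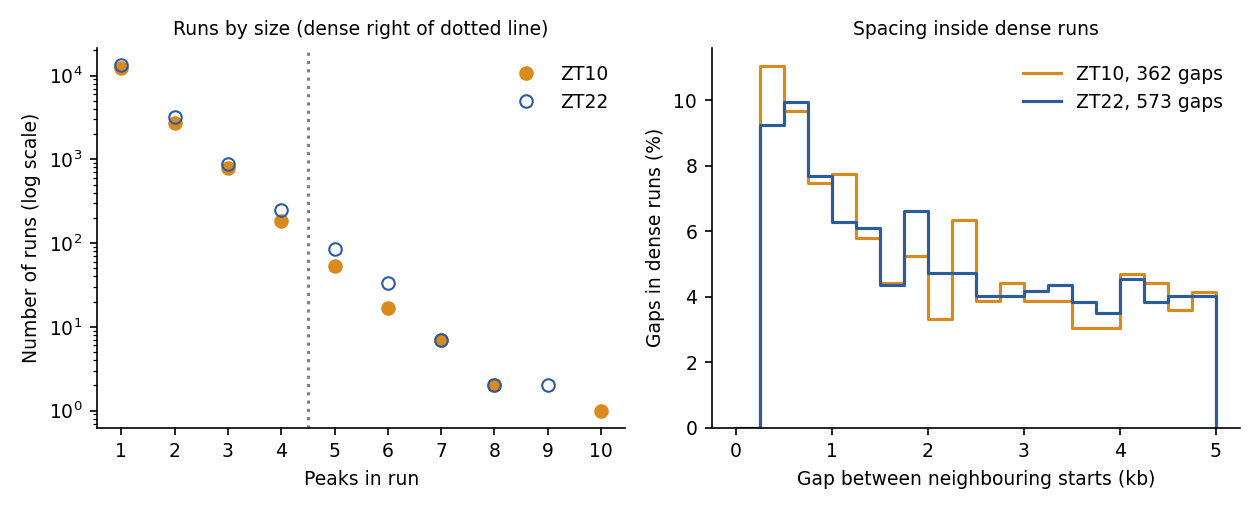
Left: number of runs (log scale) against peaks per run, for ZT10 (filled) and ZT22 (open); runs right of the dotted line are dense. Right: share of gaps between neighbouring starts inside dense runs, in bins of 0.25 kb; short gaps were the most frequent in both lists, no gap was shorter than 264 bp, and the rule ends the axis at 5 kb.

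Dense runs spanned about 10 kb, of which the listed peaks covered a small part. The median span was 9856 bp at ZT10 (3916 to 19893) and 10299 bp at ZT22 (2496 to 18597). Every peak being 200 bp wide, peaks covered a median of 11.1% of the span at ZT10 and 10.9% at ZT22. This coverage follows from peak number, span and the fixed width, and signal between the peaks was not examined. Neighbouring starts lay a median of 1926 bp apart at ZT10 (362 gaps) and 1994 bp at ZT22 (573 gaps). These values are bounded by the joining distance. The largest gap inside a dense run was 4989 bp at ZT10 and 4972 bp at ZT22, and the closest start outside a dense run lay 5025 and 5003 bp from its nearest member.

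Neighbouring members within 500 bp of each other were a minority, though gaps began only at 264 bp (ZT10) and 272 bp (ZT22). Gaps up to 500 bp made up 11% (8.01 to 14.7) at ZT10 and 9.25% (7.01 to 11.9) at ZT22, and 35 of 80 ZT10 and 43 of 128 ZT22 runs held at least 1. No stretch of such gaps held more than 3 peaks in either list. When peaks up to 500 bp apart were first counted as 1 site, 58 dense runs formed at ZT10 and 100 at ZT22. These are lower numbers than the 80 and 128 of the lists as deposited, but most of the count was left. Over all joined gaps of the lists, gaps up to 500 bp were more frequent, at 16.0% (15.0 to 17.0) and 12.2% (11.4 to 13.0), as runs of 2 to 4 peaks were spaced more tightly, with median gaps of 1473 and 1618 bp.

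The run with most ZT10 peaks lay on chromosome 13 at 23431243 to 23446322. Its 10 peaks scored, in order along the chromosome, 3.0, 1.7, 1.9, 6.9, 3.2, 7.8, 3.2, 2.1, 4.8 and 2.6. The ZT22 run there, at 23431249 to 23446334, had 9 peaks scoring 2.2, 2.3, 1.9, 6.4, 2.5, 8.1, 4.2, 6.1 and 4.1. All 9 overlapped a ZT10 peak, and the only ZT10 peak without a partner was the one scoring 2.1. Both lists had the same 2 leading sites, with the highest in the interior of the run. The ZT22 peak scoring 8.1 was the strongest member of that list, at rank 65, and the ZT10 peak scoring 7.8 was the second strongest ZT10 member, at rank 100.

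A second chromosome 13 locus, 78248 bp farther along, was more even. At 23524583 to 23537961 the ZT10 list had 8 peaks scoring 3.9, 4.6, 2.4, 4.5, 3.6, 4.6, 5.2 and 4.6. The ZT22 run at 23524582 to 23538675 had 9, scoring 4.4, 4.3, 2.9, 4.9, 4.1, 5.3, 5.2, 5.3 and 2.2. The first 8 of these matched the ZT10 peaks one by one, and the weak last peak stood 714 bp from the nearest ZT10 peak. Between these loci the ZT22 list held another dense run at 23505512 to 23514125, with scores from 1.0 to 4.2, where ZT10 had 3 peaks.

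Another 2 chromosome 13 loci lay at lower coordinates and were matched throughout. At 21174975 to 21180457 both lists had 6 peaks, all overlapping, with ZT10 scores of 2.2, 2.8, 4.3, 3.4, 4.5 and 3.4 and ZT22 scores of 2.9, 3.3, 4.7, 4.3, 4.0 and 4.6. At 22028530 to 22036802 both had 5 peaks, again all overlapping. They scored 4.7, 7.5, 2.6, 1.7 and 4.3 at ZT10 and 4.7, 7.7, 3.3, 1.4 and 4.2 at ZT22. The order from strongest to weakest was kept at the second of these loci and not at the first, where the top peaks of the lists fell on different sites.

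**Figure D2:**
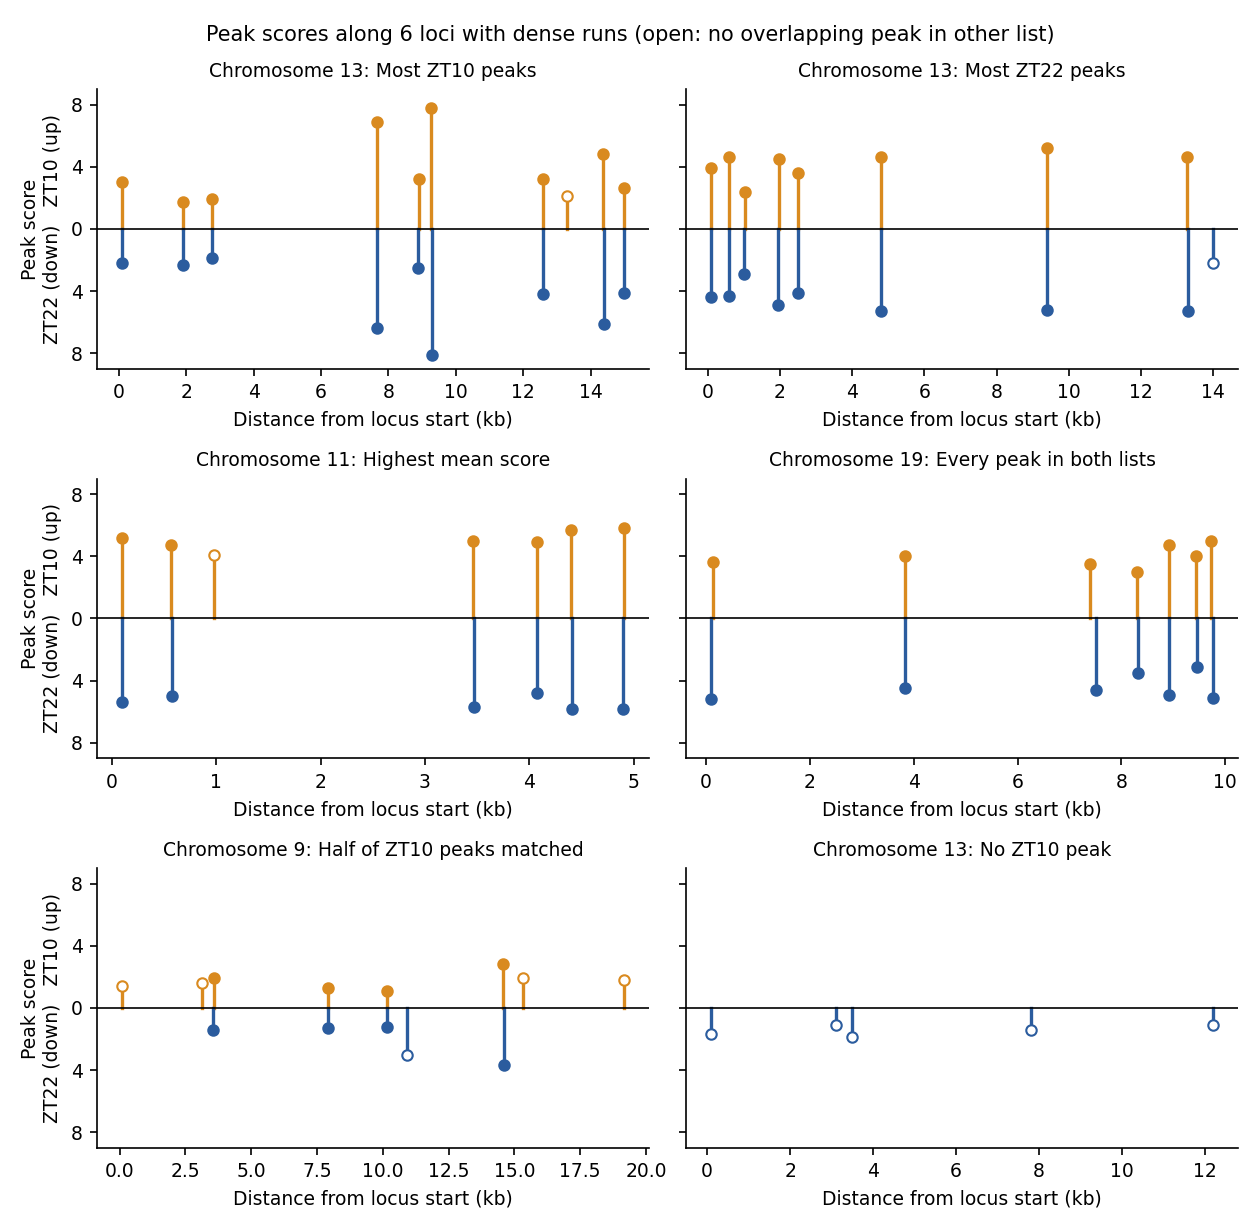
Deposited score of each peak (ZT10 upward, ZT22 downward) against distance from the start of 6 loci in kb; filled points overlap a peak of the other list and open points do not. At the 2 upper loci the lists mirror each other apart from 1 weak peak each, whereas the locus at the lower right has 5 weak ZT22 peaks and no ZT10 peak.

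The tightest strong run was on chromosome 11 at 68853121 to 68858128. It had the highest mean score of both lists, 5.06 at ZT10 and 5.42 at ZT22, and the smallest mean gap at ZT10, 801 bp. Its 7 ZT10 peaks scored 5.2, 4.7, 4.1, 5.0, 4.9, 5.7 and 5.8, and its 6 ZT22 peaks 5.4, 5.0, 5.7, 4.8, 5.8 and 5.8. No member was weak, and the single unmatched one was the ZT10 peak scoring 4.1, which was 408 bp from a ZT22 peak. A neighbouring locus 76826 bp away, at 68934954 to 68941538, was dense at ZT22 alone by 1 peak: its scores were 5.9, 3.5, 6.9, 3.2 and 4.6 at ZT22, and ZT10 had 4 peaks scoring 5.4, 3.6, 6.9 and 3.8.

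Other runs with many or strong peaks were likewise shared almost site by site. On chromosome 19 at 12069298 to 12079092 both lists had 7 peaks, all overlapping, scoring 3.0 to 5.0 in the ZT10 and 3.1 to 5.2 in the ZT22 list. On chromosome 7 at 98222808 to 98236533 the ZT10 peaks scored 6.2, 3.3, 7.2, 3.8, 5.3 and 2.6, and the ZT22 peaks 4.8, 3.0, 5.1, 4.7 and 5.0. The last ZT10 peak had no partner. On chromosome 16 at 38199041 to 38208387 the scores were 5.3, 2.2, 4.9, 4.0 and 6.3 at ZT10 and 4.5, 1.8, 3.4, 4.1 and 6.4 at ZT22, all overlapping.

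Chromosome 5 at 125692951 had more peaks at ZT22. Its 5 ZT10 peaks ended at 125698960 and scored 2.5, 4.8, 5.8, 5.6 and 4.4. The 7 ZT22 peaks reached 125701649 and scored 3.0, 5.5, 3.3, 6.6, 5.9, 5.8 and 1.7. Each ZT10 peak had a partner, and the additional ZT22 peaks were those scoring 3.3 and 1.7. Lesser differences of 1 peak were found in the 7-peak ZT10 runs on chromosome 3 (89982538 to 89999206) and chromosome 1 (182046629 to 182057760, and 94953681 to 94973573), each with 6 ZT22 peaks in its span and 6 of 7 members overlapping. In the chromosome 2 run at 167542902 to 167558228 both lists had 7 peaks and 6 of them overlapped.

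Some large runs were made of weak peaks and were matched less fully. The 8 ZT10 peaks on chromosome 9 at 42011645 to 42030911 scored 1.4, 1.6, 1.9, 1.3, 1.1, 2.8, 1.9 and 1.8, and 4 of them overlapped the ZT22 list. Its 5 ZT22 peaks scored 1.4, 1.3, 1.2, 3.0 and 3.7, and the one scoring 3.0 had no ZT10 partner. On chromosome 17 at 8110602 to 8122873 the ZT22 list had 8 peaks, 7 of which scored 2.0 or less and the last 3.9. ZT10 had 7 there, of which 5 overlapped. Both loci were dense in both lists, and 1 to 4 members of each list were not shared.

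A locus on chromosome 15 showed how the rule can divide a stretch. At 88685858 to 88704454 the ZT22 list had 7 peaks in 1 run, scoring 2.7, 2.8, 3.2, 3.2, 4.7, 5.8 and 2.0. The ZT10 list had 8, scoring 2.1, 2.6, 3.0, 4.3, 4.3, 6.7, 4.7 and 3.8, but they fell into 2 runs of 4 and were no members. On chromosome 4 at 131335042 to 131351929, by contrast, 8 ZT22 peaks scoring 1.3, 1.8, 4.6, 3.6, 2.2, 1.7, 3.3 and 1.1 faced 5 ZT10 peaks, all of them overlapping. The 7-peak ZT22 runs on chromosome 7 (144737555 to 144753036) and chromosome 5 (135957703 to 135968033) had 4 and 3 ZT10 peaks, and that on chromosome 11 at 4008771 to 4024250 had 5.

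Among the runs with the smallest mean gaps, several were dense in 1 list only. The ZT22 run on chromosome 7 at 30650171 to 30652666 was the shortest of either list, with 5 peaks a mean of 574 bp apart that scored 2.4, 2.9, 2.6, 2.0 and 3.6; ZT10 had 3 peaks there, scoring 2.0, 2.2 and 3.3. The ZT10 run on chromosome 3 at 96583110 to 96587025 scored 4.3, 4.3, 2.4, 4.8 and 4.2, and ZT22 had all but its weakest site. Tight ZT22 runs on chromosomes 11 (117661187 to 117665336), 13 (60692776 to 60696935) and 1 (195026891 to 195031184) had highest scores of 2.7, 2.0 and 2.8, with 4, 3 and 4 members overlapping. The tight ZT10 runs on chromosomes 11 (57797707 to 57802956) and 5 (114829943 to 114836846) had 5 of 5 and 4 of 6 members overlapping. Tight spacing was thus found with strong and with weak peaks.

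Members scored higher than the other peaks of their list. The median score was 2.3 for ZT10 members (quartiles 1.6 and 3.4) and 1.7 for the other ZT10 peaks (1.3 and 2.4). At ZT22 it was 1.9 for members (1.4 and 2.9) and 1.6 for the others (1.3 and 2.2). The quartile ranges overlapped in both lists. Scores of 3 or more were held by 33.0% (28.7 to 37.6) of ZT10 members against 15.1% (14.6 to 15.5) of the others, and by 24.3% (21.1 to 27.6) against 11.6% (11.2 to 12.0) at ZT22. Its scale is unknown, so a score in the ZT10 list may not mean the same as in the ZT22 list.

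The score tended to be higher with more peaks in the run, also below the size that makes a run dense. At ZT10 the median was 1.6 for single peaks, 1.8, 1.9 and 2.0 in runs of 2, 3 and 4, 2.3 and 2.2 in runs of 5 and 6, and 2.8 in runs of 7 or more. At ZT22 the sequence was 1.5, 1.7, 1.8, 1.9, 1.9, 1.9 and 2.7. Of the 1000 strongest peaks, 50 at ZT10 (5%, 3.73 to 6.54) and 70 at ZT22 (7%, 5.50 to 8.76) were members, above the 2.07% and 2.91% of all peaks. Of the 100 strongest, 2 in each list were members (2%, 0.243 to 7.04), an interval that holds those shares. The top ZT10 member, on chromosome 8 at 73558822 to 73559021, scored 8.0 and ranked 87.

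**Figure D3:**
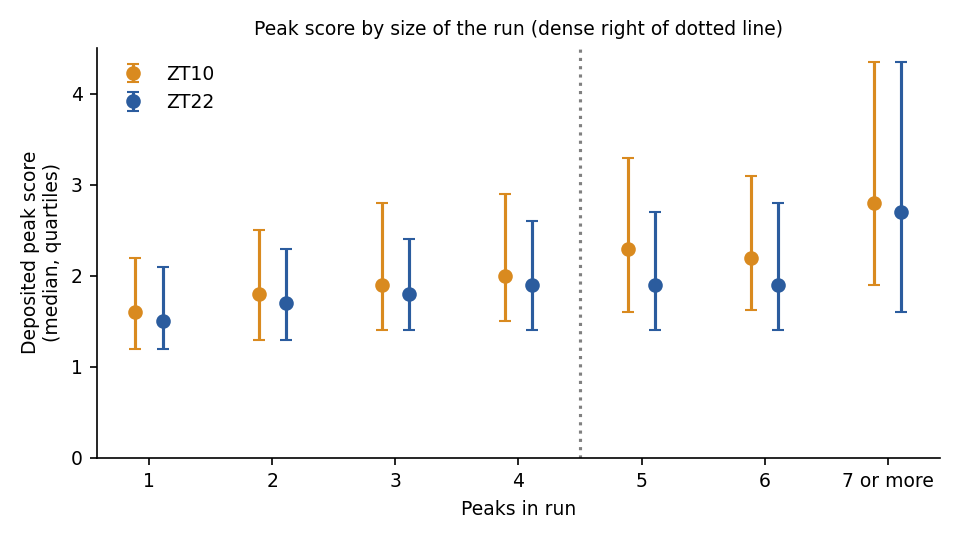
Deposited peak score (point: median; bars: lower and upper quartile over peaks) against the number of peaks in the run, for ZT10 and ZT22; runs right of the dotted line are dense. Medians go from 1.6 and 1.5 for single peaks to 2.8 and 2.7 in runs of 7 or more, with wide overlap of the quartile ranges. The last size class rests on 10 ZT10 and 11 ZT22 runs.

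Within a run, strong and weak peaks stood side by side. The highest score of a run had a median of 3.9 at ZT10 (1.3 to 8.0) and 3.4 at ZT22 (1.6 to 8.1), and the lowest a median of 1.4 and 1.3. In 18 of 80 ZT10 and 16 of 128 ZT22 runs every member scored 2 or more, and in 4 and 11 runs none did. A typical run thus held at least 1 peak well above the list's median and 1 below it. The highest and lowest of several scores lie apart in any group of peaks. Whether they lay farther apart in dense runs than in other groups of peaks was not tested. Scores of neighbouring members were weakly related, with a Spearman rho of 0.41 over 362 pairs at ZT10 and 0.34 over 573 at ZT22, against 0.23 and 0.21 in runs of 2 to 4; these pairs share a run and a library.

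A preference of the strongest peak for the ends of a run was not detectable. Of the runs with a single highest score, it was the first or last peak in 30 of 74 at ZT10 (40.5%, 29.3 to 52.6) and in 46 of 118 at ZT22 (39.0%, 30.1 to 48.4). First and last peaks made up 35.9% and 36.8% of the peaks in these runs, each within the interval of its list. Median scores were 2.15 (ZT10) and 1.8 (ZT22) for end peaks and 2.4 and 2.0 for interior peaks.

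Most members had an overlapping peak in the other list, where overlap meant at least 1 shared bp. Of ZT10 members, 343 of 442 (77.6%, 73.4 to 81.4) overlapped a ZT22 peak, against 68.3% of all ZT10 peaks and 68.1% (67.5 to 68.7) of those outside dense runs. Of ZT22 members, 458 of 701 (65.3%, 61.7 to 68.9) overlapped a ZT10 peak, against 60.6% of all ZT22 peaks and 60.5% (59.8 to 61.1) of those outside. Members were above the other peaks by 9.49 percentage points at ZT10 and 4.86 at ZT22, and the intervals did not overlap. For ZT10 the difference was 3.52 points when runs of 4 peaks were included. At ZT22 the share was 58.8% for single peaks and 62.4%, 62.9% and 64.4% in runs of 2, 3 and 4. It was 64%, 65.2% and 72.3% in runs of 5, 6 and 7 or more, so runs of 4 and 5 hardly differed. For ZT10 the sequence was 67.5%, 68.2%, 71.2%, 68%, 77.4%, 73.5% and 84%.

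This difference was not seen among peaks of equal score. Other peaks with the same deposited scores as the members overlapped at 80.3% at ZT10 and 69.7% at ZT22, so members lay 2.66 and 4.35 points below them. The ZT10 value lies within the members' interval, and the ZT22 value lies just above it. From 2 to below 3 in score, 83.8% (76.4 to 89.7) of ZT10 members and 89.3% (88.4 to 90.2) of other ZT10 peaks overlapped, and 73.7% (66.7 to 80.0) against 78.6% (77.4 to 79.7) at ZT22. At scores of 5 or more all 27 ZT10 and all 38 ZT22 members overlapped, as did 97.4% and 98.4% of the other peaks in that range. Counting centres within 1000 bp as a match turned the sign, with members 1.17 points above other peaks of equal score at ZT10 and 2.25 at ZT22.

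**Figure D4:**
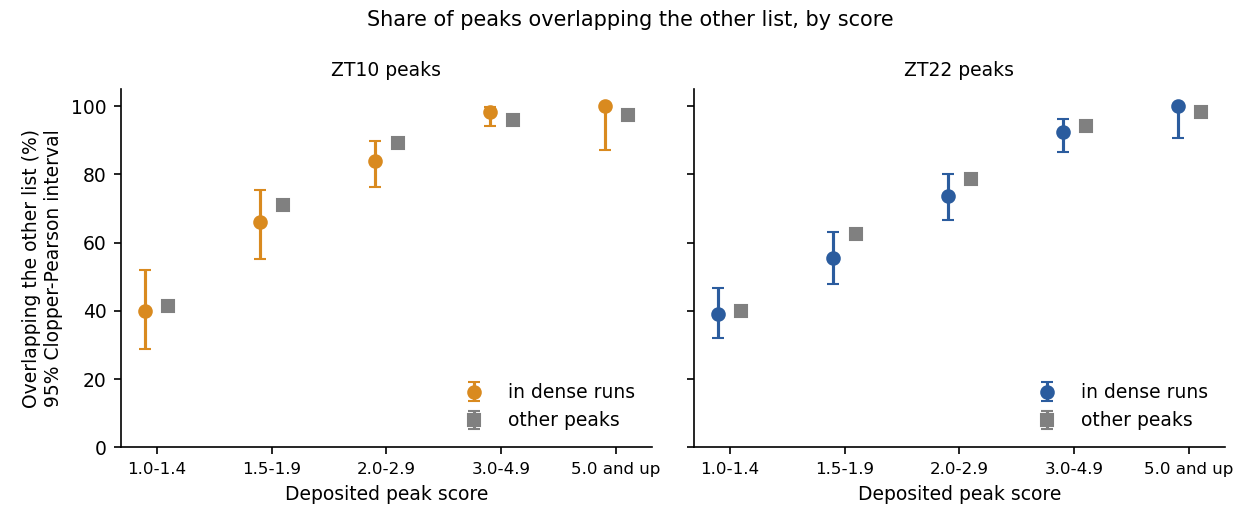
Share of peaks overlapping the other list (95% Clopper-Pearson interval) in 5 ranges of the deposited score, for peaks in dense runs (coloured) and other peaks (grey). In every range the members' interval reaches the value of the other peaks, as from 2 to below 3, where 83.8% and 89.3% of ZT10 peaks overlapped.

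Matching peaks sat at nearly the same base in both lists. Start positions of overlapping peaks differed by a median of 17 bp for ZT10 members and 19 bp for ZT22 members, against 19 bp for other peaks of either list. In 214 of 362 ZT10 neighbour pairs (59.1%, 53.9 to 64.2) both peaks overlapped different ZT22 peaks, and in 48.4% (47.0 to 49.8) of the pairs in runs of 2 to 4. At ZT22 this held for 256 of 573 pairs (44.7%, 40.6 to 48.9), against 40% (38.7 to 41.3). These shares were not compared at equal score, although scores were higher in the member pairs, and neighbouring pairs share peaks. Where both peaks of a pair overlapped, its gap differed between the lists by a median of 23 bp at ZT10 and 27 bp at ZT22. In the smaller runs this was 32 and 31 bp. Overlap of the peaks itself bounds this difference. Scores of matched members went together, with a Spearman rho of 0.87 over 343 ZT10 and 0.88 over 458 ZT22 members, against 0.80 for other matched peaks of both lists. These correlations share the libraries and count peaks of 1 run separately.

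Most members without an overlapping partner had a peak of the other list within 5000 bp. A ZT22 peak was found within 1000 bp of 38 of 99 such ZT10 members (38.4%, 28.8 to 48.7) and within 5000 bp of 97. For ZT22, 81 of 243 (33.3%, 27.4 to 39.6) had a ZT10 peak within 1000 bp and 211 within 5000 bp. Among unmatched peaks outside dense runs, 20.7% (19.8 to 21.7) at ZT10 and 15.3% (14.6 to 16.1) at ZT22 had one within 1000 bp, and 43% and 37.6% had one within 5000 bp. Other members of the run, most of them shared, lie nearby by construction.

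Fewer runs than peaks were matched. Joining dense runs of both lists by span gave 171 loci, of which 37 were dense in both, 43 in ZT10 only and 91 in ZT22 only. A dense ZT22 run was thus present at 37 of 80 ZT10 runs (46.2%, 35.0 to 57.8), and a dense ZT10 run at 37 of 128 ZT22 runs (28.9%, 21.2 to 37.6). Larger runs were matched more often at ZT10: 16 of 53 runs of 5 peaks, 11 of 17 of 6 peaks and 10 of 10 of 7 or more. The intervals for 5 peaks (18.3 to 44.3%) and for 7 or more (69.2 to 100%) did not overlap. For ZT22 the numbers were 17 of 84, 14 of 33 and 6 of 11, and the intervals for 5 peaks (12.3 to 30.4%) and for 7 or more (23.4 to 83.3%) overlapped. Larger runs also span more bases in which a run of the other list can fall. A match further requires 5 or more joined peaks in the other list, so a larger run can lack more partners and still be matched. Both the rise with run size and the lower share for runs than for peaks follow in part from this limit.

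Loci dense in 1 list usually missed the limit in the other by few peaks. In the 43 ZT10-only loci the ZT22 list had 5 peaks at 3, 4 peaks at 25, 3 at 11 and 2 at 4. In the 91 ZT22-only loci the ZT10 list had a median of 3 peaks, with 4 or more at 31 and none at 1. A lower number in the other list follows in part from selecting loci on their own list. Matched runs scored higher, with a median of the runs' mean scores of 2.84 against 2.22 for unmatched runs at ZT10, and 2.53 against 1.98 at ZT22.

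**Figure D5:**
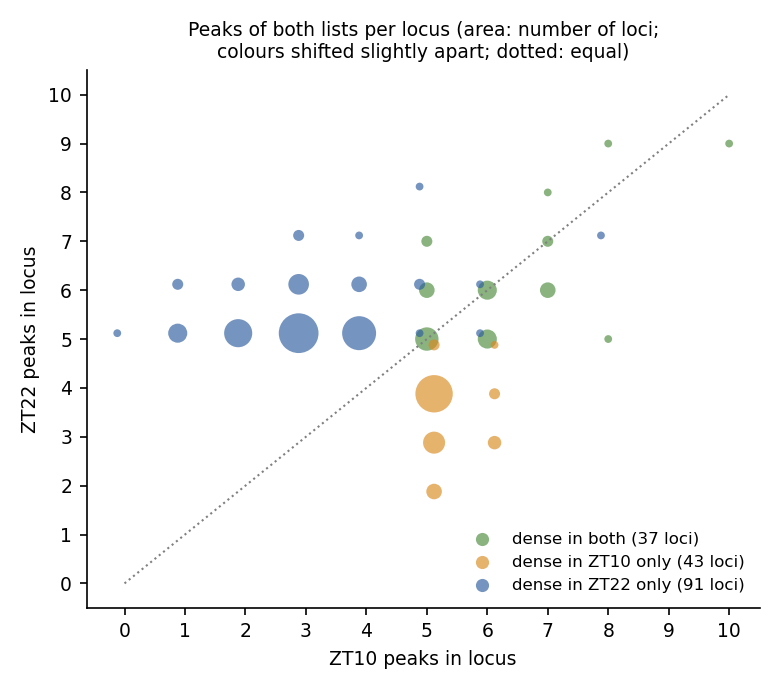
Number of ZT22 peaks against number of ZT10 peaks in each of the 171 loci; the area of a point is the number of loci, colours (shifted slightly apart) give the list in which the locus was dense, and the dotted line marks equal numbers. The 37 loci dense in both lists lie near the line, and most ZT10-only loci lie 1 or 2 peaks below it.

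The 37 loci dense in both lists had nearly the same number of peaks. They held 222 ZT10 and 218 ZT22 peaks, with equal numbers at 17 loci, more ZT10 peaks at 12 and more ZT22 peaks at 8. The numbers differed by at most 1 peak at 34 loci, and by 3 at the most. Of the peaks in these loci, 195 of each list overlapped the other. The strongest peaks of the lists overlapped at 26 of the 37. This was not particular to these loci, as it also held at 30 of 43 ZT10-only and 66 of 91 ZT22-only loci. Near-equal numbers follow in part from requiring 5 or more peaks in both lists.

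In a few runs hardly any member was shared. On chromosome 13 at 63237188 to 63249481 the 5 ZT22 peaks scored 1.7, 1.1, 1.9, 1.4 and 1.1, and the nearest ZT10 peak was 13079 bp from the last of them; this was the only run of either list with no overlapping member. A single overlapping member was found in 8 of 128 ZT22 runs (6.25%, 2.74 to 11.9), among them those on chromosomes 10 (82207845 to 82225434), 5 (143078519 to 143088855), 1 (75093889 to 75105746) and 8 (125784598 to 125792749). The shared site had the highest score of the run in 4 of the 8, which include the last 2 named, scoring 3.3 and 3.2 at ZT22 and 4.0 and 3.4 at ZT10. Over all ZT22 peaks 60.6% overlapped a ZT10 peak. Whether runs with 1 or no shared member were more frequent than that share alone would give was not tested.

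No ZT10 run had fewer than 40% of its members overlapping. The lowest were those on chromosomes 4 (44991983 to 45001168), 11 (63730701 to 63741778), 5 (9045858 to 9052152) and 6 (124771220 to 124779883), with 2 of 5 members each. The chromosome 4 run scored 1.1, 4.9, 2.6, 2.2 and 5.1, and its ZT22 partners, at the peaks scoring 4.9 and 5.1, scored 4.5 and 5.0. The shared peaks scored 3.4 and 2.1 in the chromosome 11 run, where the others scored 1.5, 2.2 and 1.7. They scored 1.3 and 2.3 in the chromosome 5 run, against 1.6, 1.3 and 1.3, and 2.3 and 1.1 in the chromosome 6 run, against 1.5, 1.5 and 1.3. The strongest peak was thus shared in each of the 4 runs, and in the last 3 a peak weaker than an unshared one was shared too.

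Dense runs lay on every autosome and none was found on chromosome X. Chromosome 11 had the most, with 12 of 80 at ZT10 (15%, 8 to 24.7) and 17 of 128 at ZT22 (13.3%, 7.93 to 20.4), against 7.87% and 7.80% of all peaks. It was named because it ranked highest, which its intervals do not allow for. It also held the most peaks of any chromosome (1681 at ZT10 and 1877 at ZT22), and some of its runs are close neighbours. The X chromosome held 153 ZT10 and 119 ZT22 peaks, which is 0.716% and 0.494% of the lists. The intervals for its 0 dense runs (0 to 4.51% at ZT10 and 0 to 2.84% at ZT22) hold these shares. Chromosome 6 had 8 ZT10 and 3 ZT22 dense runs and chromosome 1 had 3 and 11, and the intervals of these 4 shares all held the chromosome's share of all peaks. Neither an excess of runs on a chromosome nor a difference between lists on single chromosomes was tested.

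Some dense runs were close neighbours. Another dense run of the same list lay within 100 kb of 8 ZT10 and 18 ZT22 runs, and within 1 Mb of 18 and 32. A row of 3 loci followed each other on chromosome 2, at 167446408 to 167456605, 167514351 to 167526128 and 167542902 to 167558228, and the last pair was 16774 bp apart. The first was dense at ZT22 only. The megabase of chromosome 2 from 167000001 to 168000000 thereby held 13 ZT10 members among 73 peaks and 17 ZT22 members among 74. The similarly crowded megabase of chromosome 10 from 79000001 to 80000000 held no member among 71 ZT10 and 76 ZT22 peaks, which allows shares of up to 5.06% and 4.74%, both above the share over all peaks. The next megabase held 2 ZT10 dense runs, with 10 of its 70 peaks.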

How the data were processed

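Per the labels' protocols, each of 4 livers per time was immunoprecipitated singly, pooled, amplified for 15 PCR cycles and sequenced. The submitters' processing notes name HOMER and build mm8; aligner, calling settings and input control are not stated there or in the labels. The authors deposited 1 peak list per pooled library, with a score per peak to 1 decimal, from 1.0 upward, whose scale is not given. Positions are 1-based in mm8. Runs were joined and counted with Python 3.11.15, NumPy 2.4.6, pandas 2.3.3 and SciPy 1.17.1, and overlap and joining gave the same counts with bedtools 2.31.1. The scripts were checked on simulated lists. Named runs were, per list, the 10 with most peaks, the 5 with the highest mean score, the 5 with the smallest mean gap and the 5 with the lowest overlapping share; a few more were named after their values were seen (2 each on chromosomes 2 and 13, and the top ZT10 member on chromosome 8). The comparison at equal score was added after seeing the data. Members and rules were chosen with earlier results of these data known. With 1 library per time, no test was made. Gene names and sequences were not analysed here, as the gene tables at hand are of another build.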

Additional observations from a re-analysis of the deposited data

How the results depend on the processing

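Of 152 values computed under alternatives for 20 results, 101 stayed within their counting interval, within 1 SD or within 1.5 times, 49 moved further, and 2 changed sign. This tally is no measure of stability, as some values could not move. Equal list lengths leave the ZT10 list as it is, so values from that list alone stay identical. The 1 SD limit is wide, being that of single gaps or spans: ZT10 median gaps of 1926 and 740 bp count as unmoved. All are values without a test, and with read depth unknown absence of a weak peak from a list does not show absence of binding.

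Joining at 2000 bp left 4 dense runs at ZT10 and 10 at ZT22 (0.0936% and 0.208% of peaks). Their median spans were 3264 and 4698 bp and their median gaps 740 and 947 bp. At ZT10, 3 of 4 runs were matched (75%) and 19 of 20 members overlapped (95%), 26.7 points above other peaks. At ZT22, 3 of 10 runs were matched (30%) and 33 of 50 members overlapped (66%), 5.4 points above other peaks. Sharing was thus higher with tighter joining at ZT10, on 4 runs, and hardly changed at ZT22. The median score of members was 2.4 and 0.5 above that of other peaks. The strongest peak was at an end in 25% and 50% of runs with a single highest score. Joining at 10000 bp gave 349 and 502 runs (9.86% and 12.7% of peaks), spans of 17899 and 18186 bp, gaps of 3148 and 3334 bp and 63.9% and 44.4% of runs matched. With 6 or more peaks there were 27 and 44 runs (0.828% and 1.17%), and at ZT22 the score difference was 0.5 and the strongest peak was at an end in 28.9%. With 4 or more peaks there were 263 and 377 runs (5.49% and 7.05%), and 71.6% of ZT10 members overlapped, 3.52 points above other peaks. Scores of 1.5 or more in both lists gave 39 and 49 runs (1.63% and 1.91%), of which 59.0% and 46.9% were matched, and 81.4% and 75.9% of members overlapped; at ZT22 this was 8.68 points above other peaks and the score difference was 0.5. Peaks up to 500 bp apart as 1 site left 1.52% and 2.29% of sites in dense runs, and equal list lengths left 2.59% of ZT22 peaks there. Centres within 1000 bp gave 86.2% and 76.9% of members matched, 10.4 points above other ZT22 peaks, and turned the difference at equal score to 1.17 and 2.25 points; under the other 8 settings it stayed below 0 in both lists. The causes were not tested. No paired analysis was possible because there is only 1 library for each time.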

Other observations

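Joining both lists before forming runs showed dense stretches that neither list gave alone. Overlapping peaks were merged into 30845 sites, and joining these by the same rule gave 284 dense runs with 1596 sites. Of these, 171 touched a dense run of a single list, and the other 113 touched none. The longest had 10 sites. One was the chromosome 13 locus at 23431243 to 23446334, with 9 of its 10 sites in both lists. The other was the chromosome 15 stretch at 88685848 to 88704454, where 5 of 10 sites were in both. In the dense runs of the merged list 50.8% of sites were in both lists, against 47.1% of the other sites. The merged list holds more sites than either list has peaks, so the same rule gives more runs in part by construction.

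Very close peak pairs differed between the lists. Over all joined gaps, those up to 350 bp made up 6.16% (322 of 5229, 95% interval 5.52 to 6.84) at ZT10 and 3.95% (247 of 6255, 3.48 to 4.46) at ZT22. Inside dense runs the shares were 3.31% (1.72 to 5.72) and 3.14% (1.87 to 4.92). They rest on 12 and 18 gaps, and a difference was not detectable among the members. On the chromosome 15 stretch, 3 ZT10 peaks without overlap, scoring 2.6, 4.3 and 3.8, stood 303, 303 and 285 bp from the nearest ZT22 peak. Its cause was not tested.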
